A study of Mus musculus with 4 samples.

Results

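The genes described here are 48 mouse genes of the NRF2 pathway, glutathione metabolism and antioxidant defence, measured in 3T3-L1 cells on day 2 of adipocyte differentiation. They were chosen by gene symbol, with no measured value in the rule: every non-control probe was taken whose gene name in the array files was one of the 48, which gave 75 of 41174 probes. The list of genes itself was drawn up with earlier results of these data known. A total of 44 genes had a value on all 4 arrays, 40 of these were well above background on all 4, and 2 were well above background on none. 3T3-L1 is a mouse preadipocyte cell line that becomes adipocytes after hormonal induction. RNA was labeled with 1 dye and hybridized to Agilent Whole Mouse Genome arrays, 1 array per condition, all on 1 slide and in 1 scan. The conditions were DMSO alone as the control, bilberry extracts at 100 µg/mL, and delphinidin or cyanidin at 100 nM each. DMSO was at 0.1% in every condition, the control included, and all cells also received the inducers, given as 10 µg/mL insulin, 1 µM dexamethasone and 0.5 µM IBMX. Bilberry extracts are a mixture rich in anthocyanins, and delphinidin and cyanidin are the pigments of such anthocyanins without their sugar. The study asked how these additives act on adipocyte differentiation.

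NRF2, encoded by Nfe2l2, is a transcription factor that KEAP1 holds in the cytoplasm and passes on for degradation. When reactive chemicals modify KEAP1, NRF2 escapes, enters the nucleus with a small MAF partner and binds antioxidant response elements of genes that make glutathione, conjugate foreign compounds, reduce quinones, break down haem and supply NADPH. Superoxide dismutases, catalase and glutathione peroxidases remove superoxide and peroxides, and not all of them are NRF2 targets.

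The files do not contain probe sequences, so the sequences shown here are promoters of 5 of the genes, taken from RefSeq on GRCm38.p6: the members past 2-fold that the promoter table listed (Gsta3, Ephx1 and Cbr3), and Prdx1 and Gclm, which serve as further examples with a match. Each is the 250 bases before the start of the gene, read 5′ to 3′ on the gene's strand, and capitals mark matches to the core letters of the antioxidant response element, TGACNNNGC, on either strand (GCNNNGTCA when read on the opposite one). Gsta3 lies at chr1:21240335-21240584 (plus strand), Ephx1 at chr1:181017570-181017819 (minus strand), Cbr3 at chr16:93682969-93683218 (plus strand), Prdx1 at chr4:116685349-116685598 (plus strand) and Gclm at chr3:122245307-122245556 (plus strand).
Gsta3: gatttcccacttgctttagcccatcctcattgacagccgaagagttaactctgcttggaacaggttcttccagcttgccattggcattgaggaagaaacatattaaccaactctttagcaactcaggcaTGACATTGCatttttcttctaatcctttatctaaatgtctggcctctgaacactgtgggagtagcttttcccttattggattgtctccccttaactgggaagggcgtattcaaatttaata
Ephx1: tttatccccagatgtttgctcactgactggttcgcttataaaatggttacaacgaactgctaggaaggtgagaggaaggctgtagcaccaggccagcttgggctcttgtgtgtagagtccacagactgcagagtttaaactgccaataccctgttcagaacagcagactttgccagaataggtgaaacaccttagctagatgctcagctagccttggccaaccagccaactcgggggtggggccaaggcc
Cbr3: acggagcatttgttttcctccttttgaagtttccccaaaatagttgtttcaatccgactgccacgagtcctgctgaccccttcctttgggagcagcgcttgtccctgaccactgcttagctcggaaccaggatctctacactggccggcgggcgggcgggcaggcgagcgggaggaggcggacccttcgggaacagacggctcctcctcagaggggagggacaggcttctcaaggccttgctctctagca
Prdx1: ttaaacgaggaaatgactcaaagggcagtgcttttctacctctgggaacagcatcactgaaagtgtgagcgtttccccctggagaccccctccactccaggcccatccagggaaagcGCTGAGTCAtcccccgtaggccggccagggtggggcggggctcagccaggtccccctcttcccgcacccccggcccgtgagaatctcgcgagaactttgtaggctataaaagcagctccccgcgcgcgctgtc
Gclm: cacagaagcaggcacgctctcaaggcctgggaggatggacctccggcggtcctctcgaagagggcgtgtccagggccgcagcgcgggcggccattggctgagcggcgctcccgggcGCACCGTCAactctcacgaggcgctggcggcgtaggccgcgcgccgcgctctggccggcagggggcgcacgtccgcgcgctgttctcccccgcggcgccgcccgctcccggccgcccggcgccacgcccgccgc
The first base of the match was at position -121 from the start in Gsta3, at -133 in Prdx1 and at -134 in Gclm. No match lay in the windows of Ephx1 and Cbr3, which says only that these letters were not there. In windows of 300 bases (250 before the start and 50 after it), 12 of the 40 genes that the table listed (30%) had a match in at least 1 promoter, against 14% of all 27025 genes in the table. The other genes with a match were Abcc4, G6pdx, Gstm5, Mgst1, Nfe2l2, Pgd, Sod1, Srxn1 and Txnrd1. With bilberry extracts, the median log2 ratio to DMSO was 0.51 over the 11 genes with a match and 0.50 over the 21 without one, among those well above background on all 4 arrays. The same medians were 0.23 and 0.14 with delphinidin, and 0.25 and 0.13 with cyanidin. These values were not tested. They use the 75th percentile scaling described next, and scaling to spike-in RNAs would place both bilberry medians below 0 without changing the distance between them.

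A level here is a scaled signal, in multiples of the 75th percentile of its own array, and a log2 ratio compares an array with the DMSO array after this scaling. With 1 array per condition there was no replicate check and no p-value. All 3 treatments were compared with the same DMSO array, so an unusual value there would move all 3 ratios together. Repeat spots of a probe on the same array give the only measure of error: the SD over 10 spots was 0.04 to 0.05 (log2) for Gsta4 and 0.12 to 0.23 for a dim probe of Sod1, and it does not include differences between cultures or arrays.

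The bilberry array stood apart from the other arrays. Its 75th percentile was 576, against 861 for DMSO, 1009 for delphinidin and 1016 for cyanidin, while its spike-in control RNAs were higher than on the DMSO array by 0.96 (log2), against -0.03 and 0.00 for the other arrays. Each bilberry value below therefore describes a share of that array's signal, and spike-in scaling, which moves every bilberry log2 ratio by -1.54, is given beside the counts and median of the 40 genes and the genes past 2-fold. It moves the members and all genes alike, so the distance between their medians stays the same. The same shift is 0.26 for delphinidin and 0.23 for cyanidin. Where a direction against DMSO is given below for bilberry extracts, it refers to the 75th percentile scaling: with spike-in scaling, Hmox1 and Gsta3 were the only 2 of the 40 genes described next that lay above DMSO with bilberry extracts, beside 0.821% of all genes. Probes well above background numbered 23148 to 25309 per array. Among the cell type markers, 8 of 9 measured adipocyte genes and all 6 preadipocyte and fibroblast genes were well above background on all 4 arrays, whereas the leptin gene Lep was on none. The summed scaled signal of the adipocyte genes was 384 with DMSO, 261 with bilberry extracts, 419 with delphinidin and 452 with cyanidin, and that of the preadipocyte and fibroblast genes was 418, 410, 351 and 334. Fabp4 and Lpl carried most of the adipocyte sum, and the genes went both ways: with bilberry extracts Fabp4 had a log2 ratio of -0.95, Adipoq -1.07 and Slc2a4 -1.54, against 0.02 for Lpl, 0.50 for Cebpa and 0.80 for Cfd. With delphinidin and cyanidin Lpl had 0.73 and 0.78, Cfd 1.15 and 1.75, and Fabp4 -0.19 and -0.04. The preadipocyte and fibroblast genes went both ways with bilberry extracts and delphinidin, and all were below DMSO with cyanidin under the 75th percentile scaling. Thy1 had -1.20, -0.94 and -0.87 with bilberry extracts, delphinidin and cyanidin. Col1a1 had 0.42, 0.15 and -0.19, and Dlk1 0.31, 0.09 and -0.26. Pdgfra had -0.21, -0.15 and -0.18, Pdgfrb -0.12, -0.51 and -0.27, and Vim -0.10, -0.41 and -0.27. The part of these differences in the results was not tested, and fewer cells of a type and less RNA per cell cannot be told apart in such samples. Of the other markers, 2 of 4 macrophage genes (Ptprc and Itgam were at background), 0 of 4 endothelial genes and 1 of 3 epithelial genes (Krt8, at scaled signals of 0.0256 to 0.0892) were well above background on all 4 arrays. Krt8 was lowest with DMSO, like many of the genes described here, with log2 ratios of 1.17, 1.80 and 1.06, and the macrophage markers had 1.16, 0.26 and 0.53 (Csf1r) and -0.09, 0.19 and 0.38 (Cd68). The summed scaled signal was 0.0912 with DMSO and 0.103 to 0.118 with the treatments for the macrophage list, 0.0154 to 0.0273 on the 4 arrays for the endothelial list, and 0.0357 with DMSO and 0.0652 to 0.09998 with the treatments for the epithelial list. Their part in the results was not tested.

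Among the 40 genes well above background on all 4 arrays, the signal was higher with each treatment than with DMSO for most genes, but by less than 2-fold for nearly all of them, a direction that for bilberry extracts turned with spike-in scaling. The median log2 ratio was 0.48 with bilberry extracts (range -0.69 to 1.87), 0.16 with delphinidin (range -0.90 to 1.52) and 0.22 with cyanidin (range -0.53 to 1.80). The corresponding medians over all 14372 genes well above background were 0.16, -0.03 and -0.01. With spike-in scaling the bilberry median was -1.06 for the 40 genes and -1.38 for all genes, and with normexp background correction over all spots it was -0.047 against 0.14. The ratio was above 0 for 34 of the 40 genes with bilberry extracts, 31 with delphinidin and 30 with cyanidin, against 61.5%, 45.2% and 48.6% of all genes. With spike-in scaling the ratio was above 0 for 2, 35 and 34 of the 40, against 0.821%, 77.3% and 75.5% of all genes. It exceeded the median of all genes for 31 of the 40 with bilberry extracts, 31 with delphinidin and 30 with cyanidin. The lowest signal was that of the DMSO array for 24 of the 40 genes (30.1% of all genes), and the highest was that of the bilberry array for 29 of the 40 (52.1% of all genes). With spike-in scaling the bilberry array was instead the lowest for 38 of the 40 genes (98.9% of all genes) and the highest for 0. The genes were also bright: with all genes put into 4 equal bins by signal, 27 of the 40 were in the brightest bin. Within that bin, the median was 0.51 for the 27 genes against 0.29 for all genes with bilberry extracts, 0.18 against 0.04 with delphinidin and 0.20 against 0.05 with cyanidin.

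**Figure D1:**
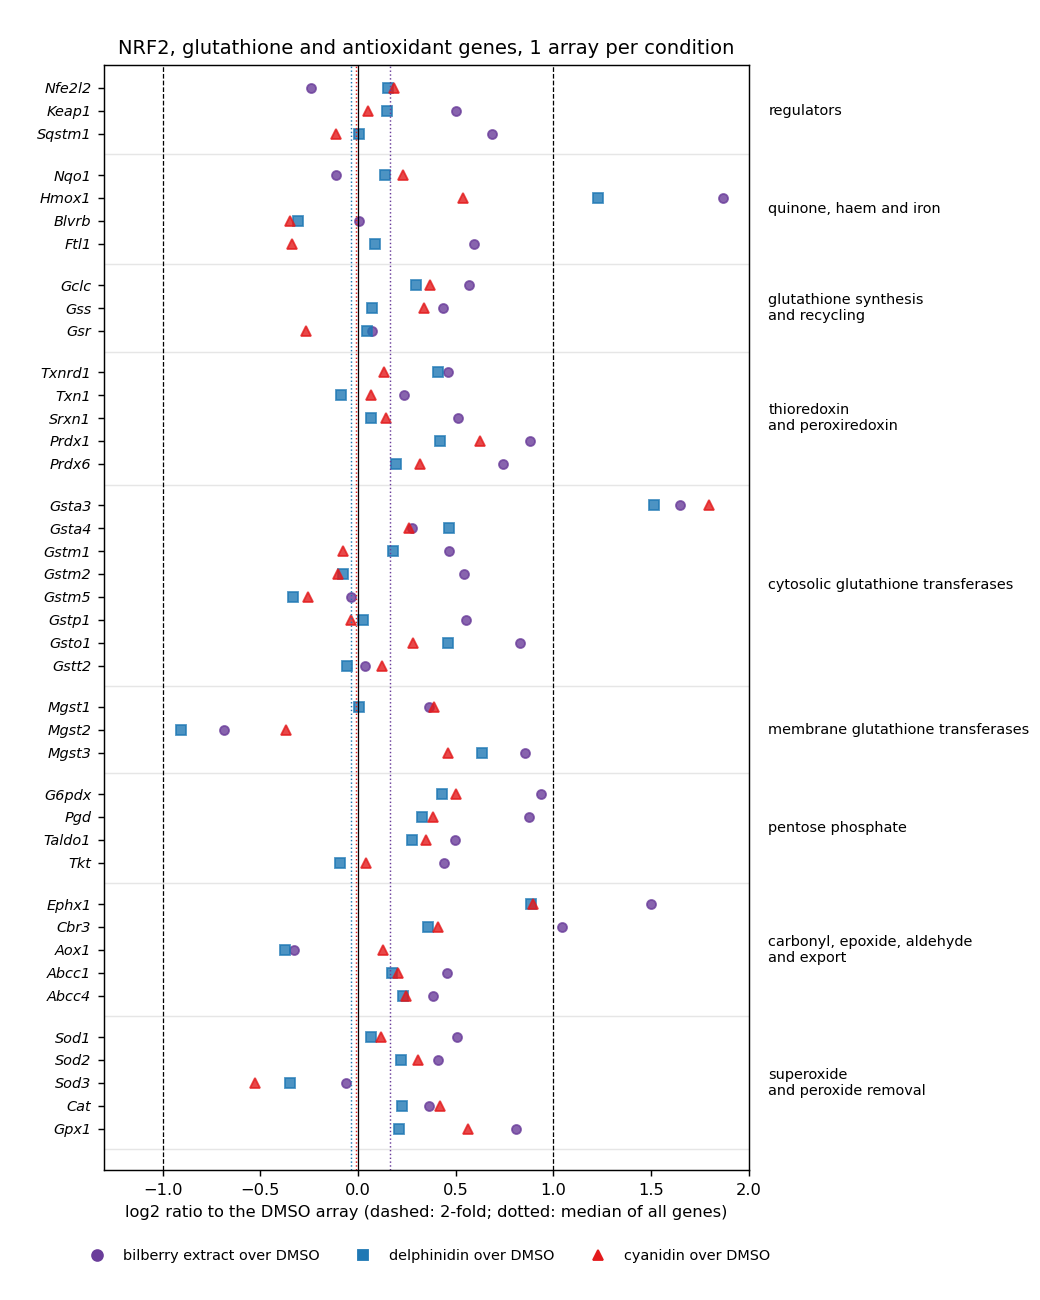
The log2 ratio to the DMSO array for each of the 40 genes well above background on all 4 arrays, grouped by role, with circles for bilberry extracts, squares for delphinidin and triangles for cyanidin; dashed lines mark 2-fold and dotted lines the median of all genes. Hmox1, Gsta3, Ephx1 and Cbr3 are the genes with a symbol beyond the upper 2-fold line, and no symbol lies beyond the lower one.

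**Figure D2:**
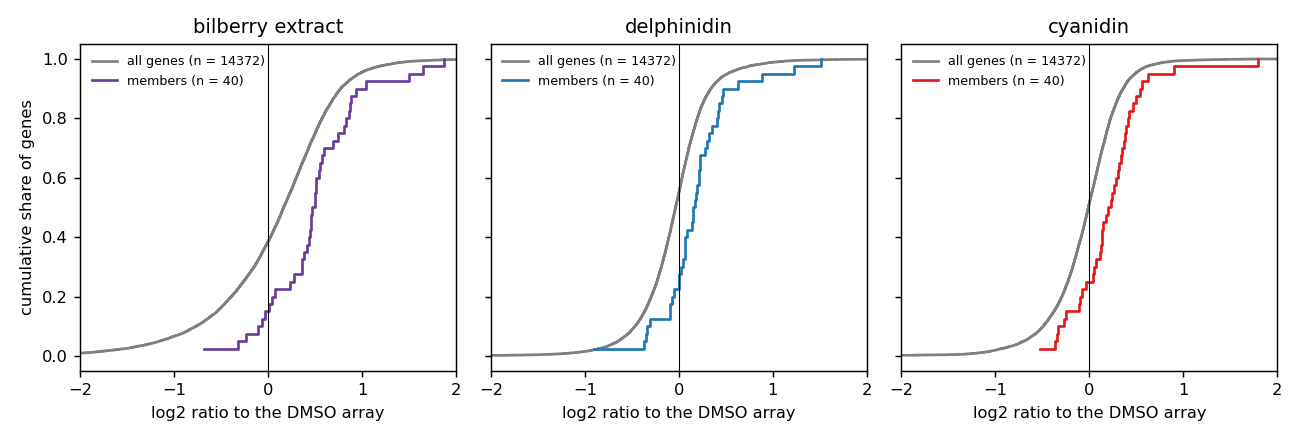
The cumulative share of genes (vertical axis) against the log2 ratio to the DMSO array (horizontal axis) for the 40 genes and for all 14372 genes well above background on all 4 arrays, in a panel per treatment. The curve of the 40 genes lies to the right of that of all genes over most of its course, with medians of 0.48, 0.16 and 0.22 against 0.16, -0.03 and -0.01.

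**Figure D3:**
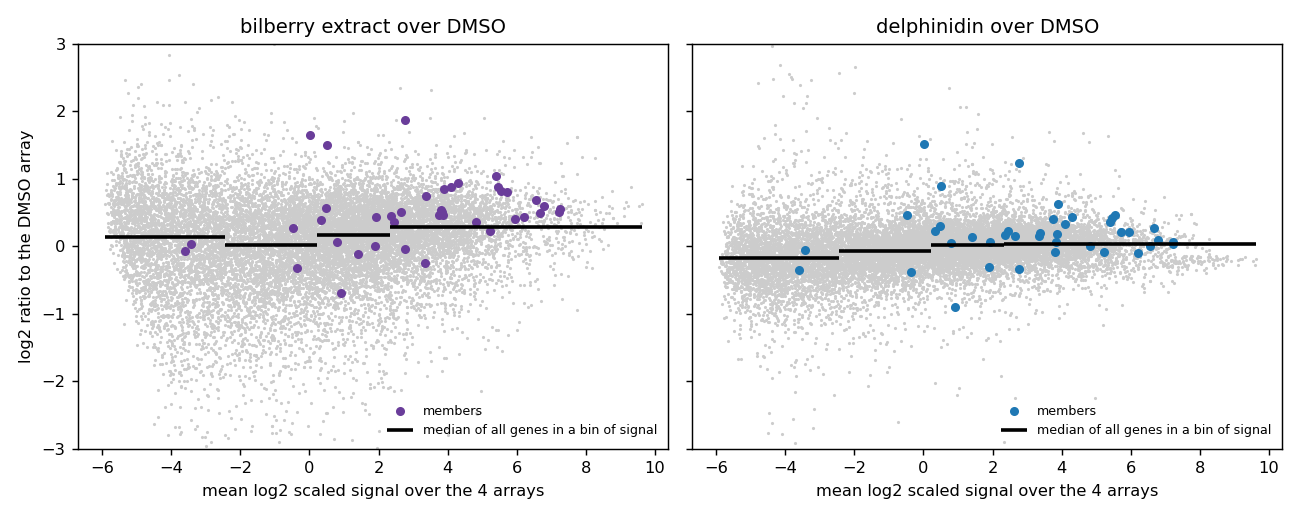
The log2 ratio to the DMSO array against the mean log2 scaled signal over the 4 arrays, for bilberry extracts and delphinidin; gray points are all genes, colored circles the 40 genes, and black bars the median of all genes in each of 4 equal bins of signal. Most of the 40 genes are bright, and the bar of the brightest bin stands at 0.29 with bilberry extracts and 0.04 with delphinidin.

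With bilberry extracts, 4 of 40 genes were more than 2-fold higher than with DMSO, namely Hmox1, Gsta3, Ephx1 and Cbr3, and 0 were more than 2-fold lower. Over all genes on these arrays, 5.52% were higher and 7.31% lower by this measure. Spike-in scaling turned the direction of this comparison, with 0 of the 40 genes higher and 25 lower, beside 70 genes higher and 12380 lower of all 16001. Delphinidin gave 2 higher of 42 (Gsta3 and Hmox1) and 0 lower, against 1.81% and 3.02% of all genes. With cyanidin, 1 of 41 was higher (Gsta3) and 0 were lower, against 1.29% and 3.48% of all genes. At 1.5-fold, bilberry extracts had 13 of 40 genes higher and 1 lower (20% and 14.6% of all genes), delphinidin 4 higher and 1 lower of 42 (4.87% and 8.93%), and cyanidin 3 higher and 0 lower of 41 (3.79% and 10.3%). With spike-in scaling these counts became 0 higher and 36 lower with bilberry extracts (0.637% and 92.8% of all genes), 10 and 1 with delphinidin (11.5% and 4.38%), and 12 and 0 with cyanidin (11% and 5.51%).

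Hmox1, heme oxygenase 1, breaks down haem to biliverdin, iron and carbon monoxide. Its scaled signal was 3.62 with DMSO, 13.2 with bilberry extracts, 8.49 with delphinidin and 5.26 with cyanidin (probe at chr8:77996380-77996439, mm8). DMSO was the lowest and bilberry extracts the highest of the 4 on this scale. The ratio to DMSO was 3.65-fold with bilberry extracts, 2.34-fold with delphinidin and 1.45-fold with cyanidin, or 1.87, 1.23 and 0.54 on the log2 scale. With spike-in scaling the log2 ratios of Hmox1 were 0.33, 1.49 and 0.77, so that DMSO was still the lowest but bilberry extracts lay below both pigments.

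Gsta3, an alpha class glutathione transferase, couples glutathione to electrophiles. Its scaled signal was 0.425 with DMSO, 1.33 with bilberry extracts, 1.22 with delphinidin and 1.48 with cyanidin (probe at chr1:21250259-21250318, mm8). All 3 treatments were above DMSO, and Gsta3 was the only one of the genes past 2-fold in each of them, with ratios of 3.13-fold, 2.86-fold and 3.48-fold. A second, dimmer probe of Gsta3 gave log2 ratios of 1.66, 1.499 and 1.71, beside 1.65, 1.52 and 1.80 for the first. Under spike-in scaling the bilberry value of the first probe was 0.11. Whether a probe of one glutathione transferase also took up RNA of a close relative was not tested.

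Ephx1, microsomal epoxide hydrolase, opens reactive epoxides to diols. Its scaled signal was 0.810 with DMSO, 2.29 with bilberry extracts, 1.499 with delphinidin and 1.51 with cyanidin (probe at chr1:182827133-182827192, mm8). The pigments gave nearly the same value, between DMSO and bilberry extracts. The ratios were 2.82-fold, 1.85-fold and 1.86-fold, and the log2 ratios of a second probe were 1.56, 0.81 and 0.83, beside 1.497, 0.89 and 0.90 for the first. Spike-in scaling turned the direction of the bilberry value, to -0.04.

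Cbr3, a carbonyl reductase that uses NADPH, was at 30.7 with DMSO, 63.2 with bilberry extracts, 39.3 with delphinidin and 40.8 with cyanidin (probe at chr16:93579415-93579474, mm8). It had only 1 probe and was just past the threshold with bilberry extracts at 2.06-fold, with 1.28-fold for delphinidin and 1.33-fold for cyanidin. The nearest gene inside the threshold was G6pdx at 1.92-fold. The bilberry log2 ratio of Cbr3 was 0.73 after quantile normalization and -0.50 with spike-in scaling.

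**Figure D4:**
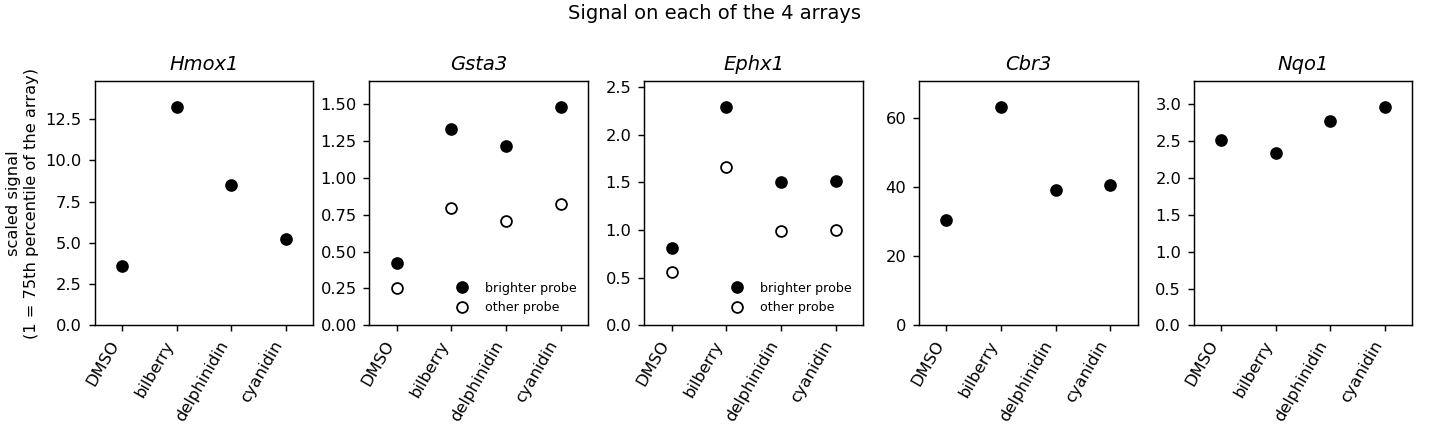
Scaled signal (1 is the 75th percentile of the array) of Hmox1, Gsta3, Ephx1, Cbr3 and Nqo1 on each of the 4 arrays, 1 point per probe, with the vertical axes starting at 0 and differing between genes. The first 4 genes are lowest with DMSO, whereas Nqo1 ranges from 2.33 to 2.96 and is lowest with bilberry extracts.

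Among the regulators, the probe of Sqstm1, the autophagy receptor p62 that can draw KEAP1 away from NRF2, gave 85.0 with DMSO, 137 with bilberry extracts, 85.2 with delphinidin and 78.8 with cyanidin. Only the bilberry value stood off from the other arrays, at 1.61-fold of DMSO. Nfe2l2 itself had log2 ratios of -0.24, 0.15 and 0.18 with bilberry extracts, delphinidin and cyanidin. Another Nfe2l2 probe gave -0.14, 0.15 and 0.24. Its dimmest probe gave -0.42, -0.08 and -0.06, so the direction with the pigments depends on the probe. Keap1 had 0.50, 0.15 and 0.05. Under this scaling neither gene was past 1.5-fold in any treatment, whereas with spike-in scaling the bilberry values were -1.78 for Nfe2l2 and -1.04 for Keap1. Nfe2l2, Keap1 and the other genes named below that are neither past 2-fold nor the brightest of their role were picked out after their values were seen.

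Nqo1, which reduces quinones and is often read as a measure of NRF2 activity, was at 2.52 with DMSO, 2.33 with bilberry extracts, 2.77 with delphinidin and 2.96 with cyanidin. Its log2 ratios of -0.11, 0.14 and 0.23 were lower than those of Hmox1 in all 3 treatments. Blvrb, a biliverdin reductase, had 0.00, -0.30 and -0.35. Ftl1, the light chain of the iron store ferritin, was at 104 with DMSO, 157 with bilberry extracts, 111 with delphinidin and 82.4 with cyanidin, with log2 ratios of 0.59, 0.09 and -0.34. With spike-in scaling these were -0.95, 0.35 and -0.10, so the order of the treatments rests on the scaling. The heavy chain, Fth1, had spots marked by the software on the DMSO and delphinidin arrays and therefore no main value. With the marked spots kept, its log2 ratios were 0.56, -0.24 and -0.24.

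Of the genes for glutathione synthesis and recycling, Gclc, the catalytic subunit of the rate-limiting enzyme, had log2 ratios of 0.57, 0.30 and 0.37. Gss, glutathione synthetase, was at 3.29 with DMSO, 4.45 with bilberry extracts, 3.45 with delphinidin and 4.16 with cyanidin. The largest ratio of both enzymes was 1.48-fold (Gclc, bilberry extracts). Both pigments were above DMSO for Gclc and Gss under either scaling, whereas the bilberry values became -0.97 and -1.10 with spike-in scaling. Gclm, the modifier subunit, had a marked spot on the bilberry array and gave 0.49 with delphinidin and 0.33 with cyanidin. Gsr, which reduces oxidized glutathione, had 0.07, 0.05 and -0.27, but its other 2 probes gave 0.49 and 0.64 with bilberry extracts and -0.06 and 0.03 with cyanidin, so its value depends on the probe. Slc7a11, the cystine carrier that feeds glutathione synthesis, was measured by 4 probes, and the 1 used was well above background with delphinidin alone, at a scaled signal of 0.0114, so no fold against DMSO is given.

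The 5 thioredoxin and peroxiredoxin genes were all above DMSO with bilberry extracts and with cyanidin, and 4 of 5 with delphinidin, where 61.5%, 48.6% and 45.2% of all genes were above DMSO in that order. With spike-in scaling 0 of 5 were above DMSO with bilberry extracts and 5 of 5 with each pigment. Under that scaling 0.821% of all genes were above DMSO with bilberry extracts, 77.3% with delphinidin and 75.5% with cyanidin. Prdx1, a peroxidase that removes hydrogen peroxide, was at 31.3 with DMSO, 57.6 with bilberry extracts, 41.8 with delphinidin and 48.3 with cyanidin. This is 1.84-fold, 1.34-fold and 1.54-fold of DMSO, the highest of the group in each treatment. Prdx6, a peroxiredoxin that also acts on phospholipids, had log2 ratios of 0.74, 0.20 and 0.32. Another Prdx6 probe well above background on all 4 arrays gave 0.52, 0.10 and 0.22, on the same side of DMSO as the probe used. The dimmest of the Prdx6 probes well above background gave 0.99, -0.11 and -0.33, so the direction with the pigments depends on the probe. Txnrd1, thioredoxin reductase, had 0.46, 0.41 and 0.13, and Srxn1, which restores overoxidized peroxiredoxins, had 0.51, 0.06 and 0.14. Txn1, thioredoxin itself, had 0.23, -0.09 and 0.07.

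The cytosolic glutathione transferases differed widely among themselves. Gsta3 was past 2-fold in every treatment, while the other 7 genes well above background had log2 ratios no higher than 0.83 with bilberry extracts, 0.47 with delphinidin and 0.28 with cyanidin. Gstp1, the pi class enzyme and the brightest probe of the group, gave 137 with DMSO, 201 with bilberry extracts, 140 with delphinidin and 134 with cyanidin. Gsto1, of the omega class, had 0.83, 0.46 and 0.28, and Gsta4, which acts on the lipid peroxidation product hydroxynonenal, had 0.28, 0.47 and 0.26. The mu class genes Gstm1, Gstm2 and Gstm5 had 0.47, 0.54 and -0.04 with bilberry extracts, 0.18, -0.08 and -0.33 with delphinidin, and -0.08, -0.10 and -0.25 with cyanidin. Gstt2, a dim theta class probe, had 0.04, -0.05 and 0.12. Gsta2 was well above background on 2 arrays, delphinidin and cyanidin, and Gstt1 on none, so neither has a fold against DMSO.

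The 3 membrane glutathione transferases differed in direction. Mgst2, which can also make leukotriene C4, was lower with every treatment than with DMSO: its scaled signal was 2.65 with DMSO, 1.65 with bilberry extracts, 1.42 with delphinidin and 2.05 with cyanidin. Its log2 ratios of -0.69, -0.90 and -0.37 include the lowest of the 40 genes with bilberry extracts and with delphinidin. Mgst3 had 0.86, 0.64 and 0.46, on the other side of DMSO under this scaling. Mgst1 was at 24.96 with DMSO, 32.1 with bilberry extracts, 25.02 with delphinidin and 32.7 with cyanidin. Delphinidin alone matched DMSO under this scaling. With spike-in scaling the log2 ratios of Mgst1 were -1.18, 0.26 and 0.62.

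The pentose phosphate pathway supplies the NADPH with which glutathione and thioredoxin are reduced. Its 4 genes were above DMSO with bilberry extracts and with cyanidin, and 3 of 4 with delphinidin, beside the 61.5%, 48.6% and 45.2% of all genes. With spike-in scaling 0 of 4 were above DMSO with bilberry extracts and 4 of 4 with each pigment. The shares of all genes under that scaling were 0.821% with bilberry extracts, 77.3% with delphinidin and 75.5% with cyanidin. G6pdx, the first enzyme of the oxidative branch, had log2 ratios of 0.94, 0.43 and 0.50. Pgd, the next NADPH-forming enzyme, had 0.87, 0.33 and 0.38. The genes of the non-oxidative branch were lower in ratio: Taldo1, transaldolase, was at 83.2 with DMSO, 117 with bilberry extracts, 101 with delphinidin and 106 with cyanidin, and Tkt, transketolase, had log2 ratios of 0.44, -0.09 and 0.04.

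Of the other genes that handle carbonyls, aldehydes or export, Cbr1, the close relative of Cbr3, had a marked spot on the cyanidin array and log2 ratios of -0.17 with bilberry extracts and 0.04 with delphinidin. Aox1, aldehyde oxidase, had -0.33, -0.37 and 0.13. The exporters Abcc1 and Abcc4, which carry conjugates out of the cell, had 0.46 and 0.39 with bilberry extracts, 0.17 and 0.23 with delphinidin, and 0.20 and 0.25 with cyanidin. The other 2 probes of Abcc1 gave 0.85 and 0.87 with bilberry extracts, above the probe used. A dimmer probe of Abcc4 gave 1.17, 0.56 and 0.86, and its distance from the first probe with bilberry extracts (0.78) was the largest among the 14 genes with several probes well above background. In these 14 genes, all probes of a gene had the same sign in 14 with bilberry extracts, 10 with delphinidin and 10 with cyanidin.

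Among the enzymes for superoxide and peroxides, Sod1, the cytosolic superoxide dismutase, was at 132 with DMSO, 188 with bilberry extracts, 139 with delphinidin and 144 with cyanidin. Sod2, the mitochondrial enzyme, had log2 ratios of 0.41, 0.22 and 0.31, and Sod3, the secreted one, had -0.06, -0.35 and -0.53 at signals under 0.1. With spike-in scaling all 3 dismutases were below DMSO with bilberry extracts (-1.03, -1.13 and -1.60), and Sod3 alone with the pigments (-0.09 and -0.29). Gpx1, the main cytosolic glutathione peroxidase, had 0.81, 0.21 and 0.56, and Cat, catalase, had 0.36, 0.23 and 0.42. Gpx4, which reduces lipid peroxides, had 0.81 with bilberry extracts and -0.02 with delphinidin, with a marked spot on the cyanidin array, and Gpx3 was well above background on none of the arrays.

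Delphinidin carries an additional hydroxyl group on its B ring compared with cyanidin, and both were given at 100 nM for the same time. Of the 42 genes that could be compared, 0 were past 2-fold in either direction between them, against 1.6% higher and 1.38% lower of all genes. The median log2 ratio of delphinidin to cyanidin over the 40 genes was -0.06 (range -0.54 to 0.69), against -0.02 over all genes. Hmox1 had the highest ratio, at 1.61-fold, followed by Ftl1 at 1.34-fold. Mgst2 and Aox1 had the lowest, at 0.690-fold and 0.705-fold. Gsta3 was at 0.823-fold and Ephx1 at 0.993-fold. With 1 array for each pigment, no interval of these differences can be given, and the values do not show that the pigments act alike. The dose of bilberry extracts was set by mass and cannot be matched to either pigment.

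A further 53 genes of the same pathways were listed beside the 48, and 47 of them had a probe. With bilberry extracts, 4 of 41 were more than 2-fold higher and 1 was lower, with a median log2 ratio of 0.36 over the list, against 5.52% higher, 7.31% lower and a median of 0.16 for all genes. Those higher were Akr1b3, an aldose reductase (1.24), Sesn2, a stress-responsive sestrin (1.18), Chac1, which degrades glutathione (1.17), and Bach1, a repressor of Hmox1 and other antioxidant response element genes (1.07). Abcc5, an exporter, was lower (-1.10). The spike-in shift of -1.54 would place all 5 below 0. Bach1 was at 0.510 with DMSO, 1.07 with bilberry extracts, 0.515 with delphinidin and 0.486 with cyanidin, so only the bilberry value stood off. With delphinidin, 1 of 41 was past 2-fold, the alpha class transferase Gsta1 at 1.00, and with cyanidin 0 of 42 were, with medians of 0.05 and 0.06. The shares of all genes were 1.81% higher and 3.02% lower with delphinidin and 1.29% and 3.48% with cyanidin, with medians of -0.03 and -0.01.

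**Figure D5:**
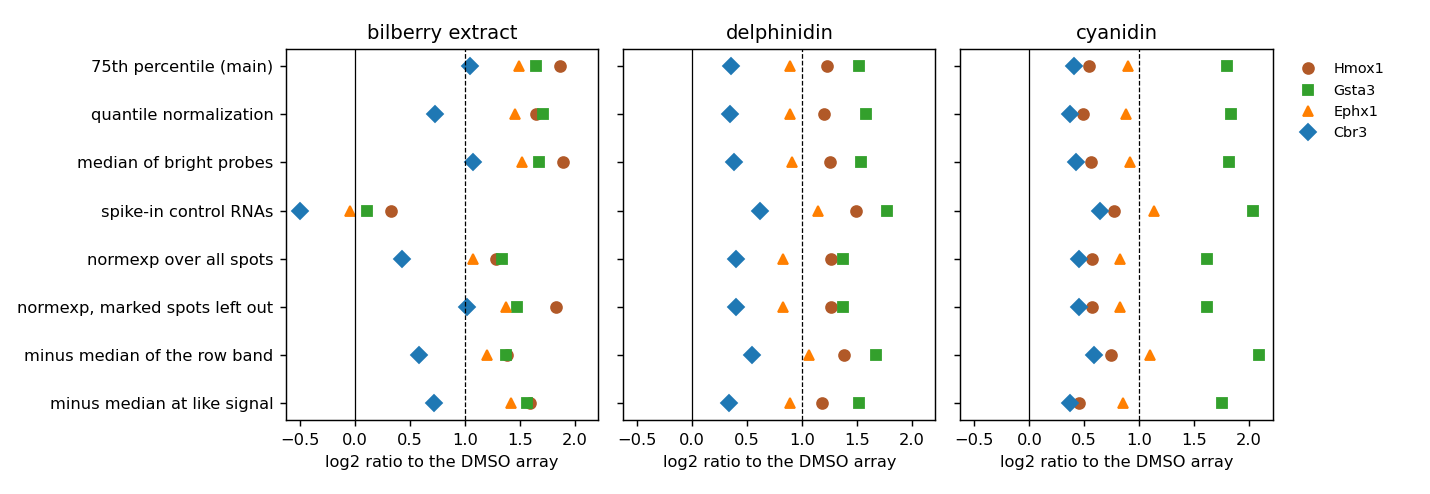
The log2 ratio to the DMSO array of Hmox1, Gsta3, Ephx1 and Cbr3 (horizontal axis) under 8 ways of scaling or background correction (vertical axis), in a panel per treatment; the solid line is 0 and the dashed line 2-fold. With bilberry extracts the spike-in scaling stands apart, at -0.50 to 0.33, and with delphinidin and cyanidin Gsta3 is past 2-fold under every setting drawn.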

How the data were processed

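RNA of 3T3-L1 cells on day 2 was measured on 1 array for each of 4 conditions. The authors deposited the Feature Extraction output (version 9.5.1.1 per the file headers), in which the processed signal is an intensity with the local background subtracted and spatial trend removed. A deposited table of the whole series held the same intensity, with a largest relative difference of 0. Here each array was divided by its 75th percentile over 43379 non-control spots and converted to log2. The study's methods took that percentile over all measurements, after a floor on low values that was not applied here. Between 701 and 875 spots per array, marked by the software for outlying signal or local background, were dropped, and repeat spots were averaged. The brightest probe of each gene (by mean log2 signal, among those measured on every array) stood for the gene. Counts past 2-fold cover genes well above background on at least 1 of the arrays compared. A probe dim on 1 array had to pass 2-fold against the higher of its own signal there and the lowest signal well above background, which gives only a bound. No test was made, since there was 1 array per condition, and that number limits the precision.

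Probe coordinates are those of the files (mm8), and no mm8 annotation was used. The members and gene lists were chosen with earlier results of these data known. Values on every array are given for members past 2-fold and for the brightest member of each role, and other pathway genes are named only when past 2-fold. The alternatives were quantile normalization, scaling to bright probes or spike-in RNAs, normexp background correction with an offset of 50 over all spots or without marked spots, subtraction of the median of 20 row bands, other detection filters, probe rules and symbols, thresholds of 1.5 and 3, marked spots kept, the deposited table and, chosen after seeing the data, subtraction of the median of probes of like signal and the spike-in values of counts at 1.5-fold, of counts above DMSO and of the order of the arrays. Calculations were tested on simulated data. Python 3.11.15, numpy 2.4.6, pandas 2.3.3, matplotlib 3.10.9, R 4.3.3 and limma 3.58.1 were used.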

Additional observations from a re-analysis of the deposited data

How the results depend on the processing

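Scaling was the choice that mattered most for bilberry extracts. With spike-in scaling, 25 of 40 genes were past 2-fold, all lower than DMSO, the median was -1.06 (all genes -1.38), and Ephx1 and Cbr3 turned to -0.044 and -0.50. The bilberry median was 0.26 after quantile normalization, -0.047 with normexp over all spots (the only setting run in which it lay below that of all genes, 0.14), 0.081 after subtraction of row-band medians (all genes -0.22) and 0.23 after subtraction of the median at like signal, chosen after seeing the data. Row bands were taken over all probes, dim ones included. Over probes well above background the band medians ran only from 0.11 to 0.20. Cbr3 was not past 2-fold after quantile normalization, normexp over all spots, row bands or like signal. Normexp over all spots called 5 of 40 genes higher, Gstt2 and Sod3 among them, beside 26.9% of all genes. Row bands called 3 of 40 higher and 1 lower (Mgst2), beside 329 genes higher and 2226 lower of all 16001. Under spike-in scaling and row bands the medians were 0.42 and 0.37 with delphinidin (all genes 0.22 and 0.15) and 0.45 and 0.43 with cyanidin (all genes 0.22 and 0.19). Delphinidin then had 3 genes past 2-fold under each (Gsta3, Hmox1 and Ephx1), beside 3.27% and 2.75% of all genes higher. Cyanidin had 2 under each (Gsta3 and Ephx1), beside 2.14% and 1.93% of all genes higher. A 1.5-fold threshold gave 14, 5 and 3 genes with bilberry extracts, delphinidin and cyanidin and 1 between the pigments (Hmox1, higher with delphinidin like 4.09% of all genes). A 3-fold threshold gave 2, 0 and 1, all higher, beside 1.34%, 0.806% and 0.56% of all genes higher. The causes were not tested, other than the change of threshold itself. Over all counts and medians, some of them given above, 86 values under alternatives stayed within 1.5 times the count or within the spot noise of the median. A further 18 moved by more, and changes of direction were not set apart among these. They include the bilberry median, 0.48 in the main setting, with spike-in scaling (-1.06) and with normexp over all spots (-0.047). The bilberry count with spike-in scaling, which turned from higher to lower, is also among them. For Hmox1, Gsta3, Ephx1 and Cbr3, 74 log2 ratios under alternatives stayed within the spot noise, 36 moved by more with their direction kept and 2 reversed, as given above. No paired analysis was possible because each condition had 1 array and the labels carry no replicate numbers. Dim probes, signal over background and the single arrays limit what these data can show.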
